A study of Mus musculus with 4 samples.

Results

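The flavin-containing monooxygenase genes Fmo1, Fmo2, Fmo4 and Fmo5 were followed in mouse liver. They were found on the array as every non-control probe whose gene name in the scanner files is 1 of these 4 symbols, which gave 11 of 56605 probes, for 4 of 37074 gene names. Fmo1 and Fmo2 had 4 probes each, Fmo5 had 2 and Fmo4 had 1. The family was selected with its AAI to corn oil and male to female ratios on these arrays in view, so these ratios count as values it was chosen by and are given as a description.

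C57BL/6 wild-type (WT) mice, aged 6 weeks, were compared in 4 groups. Female mice received 5 mg/kg/day of aristolochic acid I (AAI), a plant nitroaromatic acid that damages the kidney, and male mice received 2 mg/kg/day. AAI in corn oil was injected intraperitoneally over 3 weeks, on 5 days of each week, and 1 control group of each sex received corn oil. Liver RNA from 5 mice was pooled in equal amounts within each group, and each pool was hybridized to 1 single-colour array, so there was 1 array per group. The spread between mice was therefore not measured, no comparison has a p-value, and a difference here is one between pools. Because the dose differed between the sexes, a sex difference in the response to AAI cannot be told apart from a dose difference.

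The FMO enzymes are membrane proteins of the endoplasmic reticulum that hold a flavin cofactor (FAD). They take electrons from NADPH, bind oxygen, and transfer a single oxygen atom to a soft nucleophile, usually a nitrogen or sulfur atom of an amine or a thioether, and so form N-oxides and S-oxides. Together with the cytochromes P450 they are the main microsomal monooxygenases of the liver, and the levels of some of them differ between male and female mice.

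The sequences below are what the array measured. Each probe is a 60-base DNA oligonucleotide, and the first 30 bases are printed 5′ to 3′ for the brightest probe of each gene, followed by the second probe of Fmo2 and of Fmo5, whose values are set against the first. All letters are in lower case because no part of a probe is singled out.
Fmo1 A_52_P508991: gatctaactggcttttcaaatgtatggagt
Fmo2 A_51_P301998: cttctttttccaacttcaggggttttaatc
Fmo2 A_52_P273891: acattataggtaagaaaagcaaatctcagc
Fmo4 A_55_P2647282: acaaatgtctgcaaagaaatgtcatgttac
Fmo5 A_55_P1959595: acagaaaatagctaagttccggcatgtggc
Fmo5 A_52_P1147453: aatacatgtaagcagatacgtgagaattca

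In the mm9 build named in the file headers, the Fmo1 probe lies on the minus strand at chr1:164760037-164760096. The 2 Fmo2 probes lie on the same strand at chr1:164806827-164806886 and chr1:164805530-164805589. The Fmo4 probe lies at chr1:164738476-164738535, also on the minus strand. The Fmo5 probes lie on the plus strand of another chromosome, at chr3:97456410-97456469 and chr3:97457388-97457447. Their starts in the target transcripts were given as base 1921 for Fmo1, bases 1627 and 2924 for Fmo2, base 206 for Fmo4, and bases 2484 and 3462 for Fmo5. Whether a probe falls in coding sequence or in an untranslated region was not determined here. Of the other 5 probes, 4 were designed against Ensembl transcripts and not against the RefSeq mRNA of the gene, 2 for Fmo1 and 2 for Fmo2.

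The probes of different family members were compared with each other, but not with the transcripts of the other family genes. Whether a probe also binds the transcript of another member was therefore not examined. Short shared runs do not settle it, since probes of 1 gene also shared at most 7 bases with each other. The longest run of bases that any of the 11 probes shared with a probe of another family gene, Fmo6 and Fmo9 included and both strands searched, was 9 bases of 60, and their GC content was between 35 and 45%. All 11 probes were well above background on all 4 arrays, none had an outlier spot, and each had 1 spot per array. All 4 genes thus had a signal above background in every group.

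The arrays as a whole carried 59305 non-control spots each, of which 70 to 234 were outliers and none was saturated. The share of probes that passed the scanner's background test by array was 74.7% at the lowest and 81.5% at the highest. The Y-linked genes Ddx3y and Eif2s3y were well above background on both male arrays and on neither female array. Hepatocyte genes were high throughout. The summed signal of 11 of them, albumin (Alb) included, differed between AAI and corn oil by a factor of 1.003 in females and 1.002 in males. The quantile normalization described below largely sets the values of the brightest probes, which dominate this sum. The sum therefore cannot show whether the hepatocyte content was stable. Single genes had log2 ratios from -0.75 (Pck1) to 0.75 (Cps1) in females and from -0.94 (Apob) to 0.57 (Fgb) in males. Their medians were 0 and -0.18, with 5 of 11 negative in females and 7 of 11 in males. In bulk liver RNA, fewer cells of a type and less RNA per cell cannot be told apart.

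Values are normalized intensities, that is, processed spot signals made comparable by quantile normalization over the 4 arrays, and ratios are given on the log2 scale. They come with a technical error of 2 kinds. The scanner software's own error was about 10% of the signal for the bright spots, which makes 0.19 on the log2 ratio of 2 arrays. Different probes of 1 gene differed in their ratio with a median SD of 0.25 in the female comparison of AAI with corn oil, 0.24 in the male comparison, and 0.23 between the sexes in corn oil. Neither holds the variation between mice.

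Fmo2, the form known as the main FMO of the lung in many mammals, varied most among the 4 genes. Its brightest probe read 1586 in female corn oil, 948 in female AAI, 594 in male corn oil and 2905 in male AAI livers. The male AAI pool was thus the highest of the 4 and the male corn oil pool the lowest. Each step in that order was wider than the median spread between probes of a gene, the smallest being 0.67 on the log2 scale. The ratios of the 4 Fmo2 probes themselves differed more, with an SD of 0.41 for AAI in females, 0.85 for AAI in males and 0.52 between the sexes in corn oil.
In male mice the AAI pool exceeded the corn oil pool by a log2 ratio of 2.29 ± 0.19 (scanner error), which is 4.89-fold. In female mice the AAI pool was lower than the corn oil pool by 1.67-fold, a log2 ratio of -0.74 ± 0.19. The Fmo2 signal thus lay on opposite sides of its corn oil level in females and males, with a male log2 ratio that was higher than the female one by 3.03.

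The second RefSeq probe of Fmo2, A_52_P273891, gave the same order of groups over a narrower range, 1.49 against 2.29 on the log2 scale. It read 471 in female corn oil, 406 in female AAI, 237 in male corn oil and 665 in male AAI livers. The log2 ratio of AAI to corn oil was 1.49 ± 0.20 in males and -0.21 ± 0.20 in females, so the female difference of this probe was about as large as its scanner error.
A probe for an Ensembl transcript, A_52_P1138659, read 116 in female corn oil, 92.1 in female AAI, 56.8 in male corn oil and 129.9 in male AAI livers, again with the male AAI pool highest and the male corn oil pool lowest. Its log2 ratios were 1.19 ± 0.22 in males and -0.33 ± 0.21 in females.
The fourth probe, A_55_P2713731, did not follow the other three. It read 93.4, 111, 82.5 and 96.9 in the same order of groups, with log2 ratios of 0.23 ± 0.22 in males and 0.26 ± 0.21 in females. All 4 probes were higher in the male AAI pool than in the male corn oil pool, 3 of them by more than 2-fold, and their ratios had an SD of 0.85. In females 3 of the 4 were lower with AAI, none by 2-fold.

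Fmo1, which oxidizes a wide range of amines and sulfur compounds, differed between the pools in a narrower range. Its brightest probe read 6767 in female corn oil, 5808 in female AAI, 3112 in male corn oil and 5145 in male AAI livers. The male corn oil pool stood below the other three, which lay close together: the gaps between female corn oil and female AAI (0.22) and between female AAI and male AAI (0.17) were below the spread between probes, whereas the gap from male AAI down to male corn oil was 0.73.
The AAI to corn oil log2 ratio was 0.73 ± 0.19 in males, a 1.65-fold difference, and -0.22 ± 0.19 in females. Neither reached 2-fold.

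The other Fmo1 probes did not all give the same picture. The probe A_55_P2153783, against the same RefSeq mRNA, read 717, 782, 365 and 642 in female corn oil, female AAI, male corn oil and male AAI livers. Its log2 ratio was 0.81 ± 0.20 in males and 0.13 ± 0.19 in females. The Ensembl probe A_55_P2792920 read 455, 526, 343 and 505, and its ratios were 0.56 ± 0.20 and 0.21 ± 0.20.
In these 3 probes the male corn oil pool was always the lowest, while the sign of the small female ratio was not shared. The dimmest probe, A_52_P408245, read 61.7, 30.1, 50.5 and 38.8 and was lower with AAI in both sexes, with a female log2 ratio of -1.04 ± 0.27 and a male one of -0.38 ± 0.30. The SD of the male ratios over the 4 Fmo1 probes was 0.55.

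Fmo4, a form of low abundance in most tissues, had a single, dim probe. It read 112 in female corn oil, 127 in female AAI, 83.6 in male corn oil and 93.4 in male AAI livers. Both female pools lay above both male pools, and the differences between AAI and corn oil stayed within the spread between probes, at log2 ratios of 0.18 ± 0.21 in females and 0.16 ± 0.22 in males.

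Fmo5, a constitutive liver form that acts on few of the usual FMO substrates and can carry out Baeyer-Villiger oxidations of ketones, varied least of the 4 genes in its brightest probe. Its brightest probe read 42442 in female corn oil, 51535 in female AAI, 39603 in male corn oil and 36906 in male AAI livers. The 4 pools lay within 0.48 on the log2 scale, and only the step from female AAI to female corn oil (0.28) was wider than the spread between probes.
The AAI to corn oil log2 ratio was 0.28 ± 0.19 in females and -0.10 ± 0.19 in males. The male value turned to 0.13 with 75th percentile scaling and to 0.07 with median scaling. The second probe, A_52_P1147453, read 1877, 1809.7, 1332 and 1047 and gave ratios of -0.05 ± 0.19 in females and -0.35 ± 0.19 in males, so that both Fmo5 probes were at or below the corn oil level in males and disagreed in sign in females. Over the 4 pools this second probe ranged by 0.84 on the log2 scale, more than the Fmo4 probe (0.60).

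**Figure D1:**
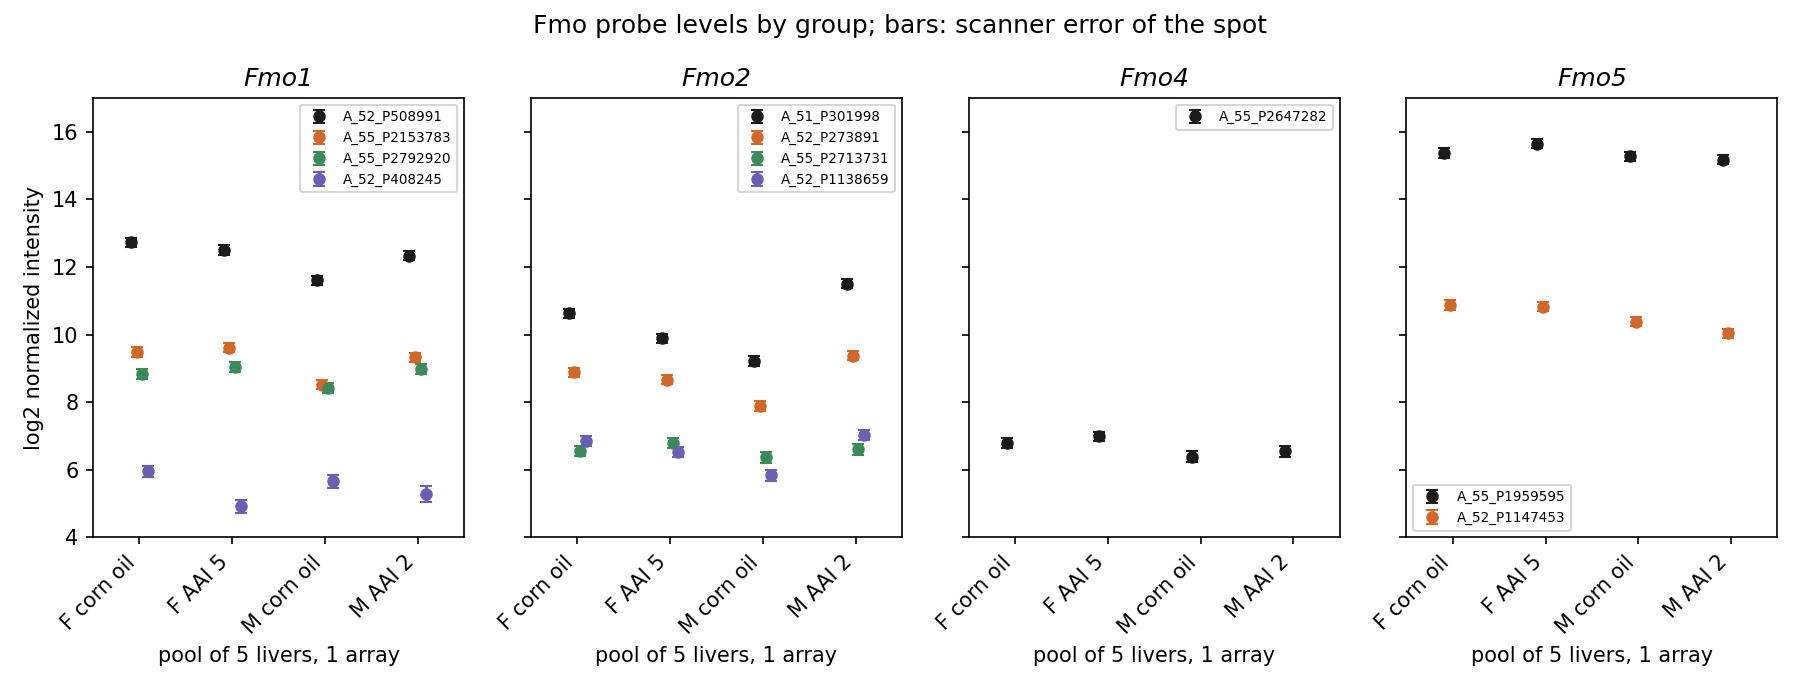
Levels of the 11 Fmo probes (log2 normalized intensity, 1 point per pool of 5 livers) in female corn oil, female AAI 5 mg/kg/day, male corn oil and male AAI 2 mg/kg/day; bars are the scanner's error of the spot. The brightest Fmo2 probe runs from 594 (9.21 on the log2 scale) in male corn oil to 2905 (11.50) in male AAI, while the brightest Fmo5 probe stays within 0.48 and the second Fmo5 probe within 0.84 on the log2 scale.

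Across all genes tested, a 2-fold difference between AAI and corn oil was reached by 4.42% in females (1399 of 31635, of which 30.4% were higher, or 45.3% with scaling to the 75th percentile) and by 7.99% in males (2437 of 30488). In females, 0 of the 4 Fmo genes reached it, against 1.34% of all genes higher and 3.08% lower. In males, 1 of 4 did, Fmo2, which was higher, as were 3.47% of all genes, while 4.52% were lower. Since the family was picked with these ratios known, nothing is read from this count.
The Fmo2 ratio in males ranked 266 from the top among 30488 genes, and in females it ranked 2020 from the bottom among 31635. The Fmo1 ratio in males ranked 2027 from the top. Differences as large as those of Fmo4 and Fmo5 were common: 68.7% of the genes differed by as much as Fmo4 in males and 49.8% by as much as Fmo5 in females. The median log2 ratio of the 4 genes was -0.02 in females and 0.44 in males, beside 0.04 and 0.00 for all genes tested.

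**Figure D2:**
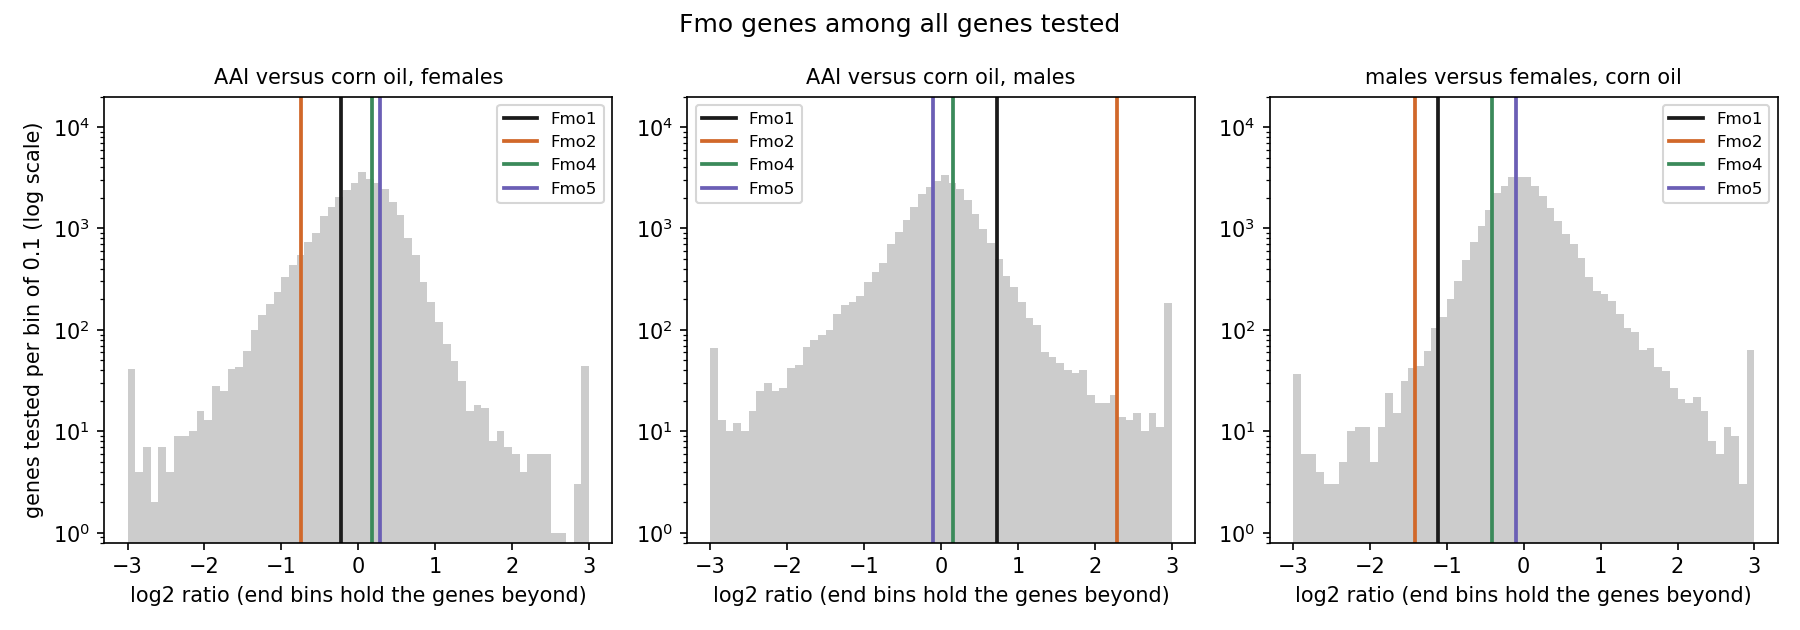
Log2 ratios of all genes tested (grey, number of genes per bin on a log scale) with the 4 Fmo genes as vertical lines, for AAI versus corn oil in females and in males and for males versus females in corn oil. Fmo2 stands at 2.29 in males and -0.74 in females, and Fmo1 and Fmo2 stand at -1.12 and -1.42 in the sex comparison.

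In corn oil alone, all 4 Fmo genes were lower in the male pool than in the female pool. The difference exceeded 2-fold for Fmo1 and Fmo2, whose log2 ratios of males to females were -1.12 ± 0.19 and -1.42 ± 0.19, or 2.17-fold and 2.67-fold. Beside these 2 of the 4 Fmo genes, 5.65% of all genes tested differed by 2-fold or more in this comparison, 1.84% lower and 3.81% higher in males, and nothing is read from the count. Fmo4 was lower in males by 0.42 on the log2 scale with an error of 0.21, and Fmo5 by 0.10, which is below its error.
The probes of each gene pointed the same way: 4 of 4 for Fmo1 (from -1.12 to -0.29), 4 of 4 for Fmo2 (from -1.42 to -0.18) and 2 of 2 for Fmo5 (-0.10 and -0.50) were lower in males. The median of the 4 genes was -0.77, beside -0.03 for all genes tested. A negative ratio was thus also the more common sign among all genes, and nothing is read from the counts of signs.

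Between the AAI pools the order was another. Fmo2 was higher in male AAI than in female AAI livers by a log2 ratio of 1.62 ± 0.19, and was the 1 of the 4 genes that differed by 2-fold; of all genes tested 4.3% did, 3.22% higher and 1.08% lower in males. The 2-fold call rests on the brightest Fmo2 probe: the second RefSeq probe gave 0.71, the Ensembl probes 0.50 and -0.20, and the mean of the 4 probes was 0.65. By contrast, Fmo1 was 1.13-fold lower in the male AAI pool, at a ratio of -0.17 ± 0.19 that is below its error. Fmo4 and Fmo5 were lower in the male AAI pool, with log2 ratios of -0.44 and -0.48. The female-over-male difference of Fmo1 in corn oil was thus larger than that between the AAI pools, and that of Fmo2 had the opposite sign between the AAI pools in 3 of its 4 probes, A_55_P2713731 being lower in males in both. The male corn oil array enters both the male AAI ratio and the corn oil sex ratio, so a low reading on that 1 array moves both, and the 2 ratios are not independent.

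**Figure D3:**
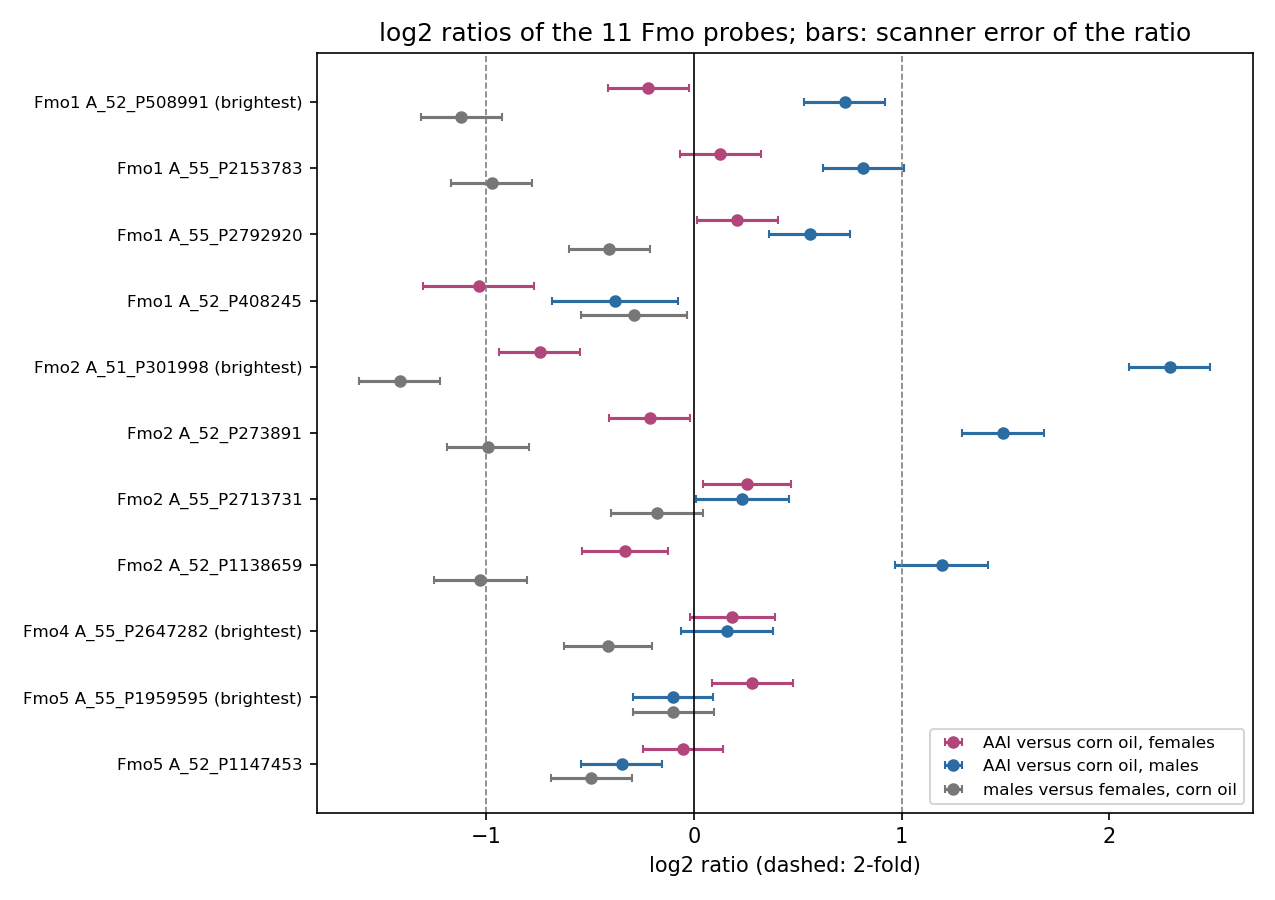
Log2 ratios of each of the 11 Fmo probes for AAI versus corn oil in females and males and for males versus females in corn oil; bars are the scanner error of the ratio and dashed lines mark 2-fold. 3 of the 4 Fmo2 probes lie beyond 2-fold in males, and all 11 probes lie below 0 in the sex comparison.

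The other Fmo genes of chromosome 1 on the array were dim. Fmo9, at log2 levels of 7.47 in female corn oil, 5.36 in female AAI, 4.69 in male corn oil and 4.32 in male AAI, was not well above background in the male AAI pool. It was lower with AAI in females by 4.33-fold and lower in male than in female corn oil livers by 6.86-fold. Fmo6 was well above background in corn oil only, at 5.04 in females and 4.89 in males, and was at least 2.35-fold lower with AAI in females and at least 1.14-fold lower in males. Fmo13 had no probe.
No fold could be given for Fmo9 between the male pools. Fmo4, Fmo1, Fmo2, Fmo6 and Fmo9 lie in this order along chromosome 1, and Fmo5 lies on chromosome 3. Prrc2c, which flanks Fmo4, had log2 ratios of 0.33 in females and -0.17 in males. The neighbours of Fmo5, Chd1l and Prkab2, had ratios of 0.62 and -0.20 in females and of 0.05 and 0.68 in males, and the next ones out, Olfr1402 and Pde4dip, 0.55 and 0.15 in females and 0.13 and 0.06 in males. None of these 5 neighbours reached 2-fold in either comparison. Myocos, beyond Prrc2c, had no probe.

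The genes that supply the FMO enzymes with their cofactors were compared with Fmo2. Of 10 genes of NADPH supply, 0 differed by 2-fold in either sex, and their median log2 ratio was 0.09 in females and 0.03 in males. G6pdx and Pgd, the NADPH-forming enzymes of the pentose phosphate pathway, had ratios of 0.74 and 0.45 in males, and 0.13 and 0.30 in females. G6pdx was, like Fmo2, highest in the male AAI pool, at a log2 level of 10.15, and lowest in the male corn oil pool, at 9.41. Of 7 genes of riboflavin transport and FAD synthesis, 0 differed by 2-fold. Their medians were 0.04 and -0.07, with Flad1, the FAD synthase, at 0.28 and 0.04 and Enpp3 at 0.04 and -0.64.

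Among 18 other enzymes that reduce or oxidize amines, sulfur compounds and xenobiotics, only Nqo1 differed by 2-fold. Nqo1, a quinone reductase that also reduces the nitro group of AAI, was higher with AAI by 2.82-fold in females and 3.44-fold in males, that is, in the same direction in both sexes, unlike Fmo2. Por, the electron donor of the cytochromes P450, had ratios of 0.31 and 0.50. The median of the list was 0.03 in females and 0.05 in males.

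Transcription factors that are known or proposed regulators of Fmo genes or of sex-biased liver genes were measured too. Of 16, 1 was lower by 2-fold in females and 1 in males, beside the 3.08% and 4.52% of all genes, and 0 were higher. In each sex 11 of the 16 had a negative ratio, where the median of all genes tested was 0.04 in females and 0.00 in males. Nothing is read from this count of signs. Nr1i2, the pregnane X receptor, was lower in females by 1.22 on the log2 scale and had a ratio of -0.28 in males. Foxa1, a pioneer factor of liver enhancers, had a ratio of -0.61 in females and was lower in males by 1.11. Hnf4a, which sets liver expression of many detoxifying genes, had a ratio of -0.42 in females and -0.38 in males. In the corn oil comparison of the sexes, Esr1, the oestrogen receptor alpha, was lower in males by 1.18, and its AAI ratio was 0.60 in males and -0.15 in females. Medians were -0.21 in females and -0.18 in males.

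Fmo1 and Fmo2, the genes that were lower in male than in female corn oil livers, were set beside genes known for a sex bias in mouse liver. Of 10 female-biased genes, 9 were lower in the male corn oil pool by 2-fold. In males given AAI, 6 of the 9 that could be measured were higher than in corn oil by 2-fold and 1, Cyp3a16, was lower, with a median log2 ratio of 2.05, and Cyp2b9, Cyp2b13 and Cux2 led at 5.28, 3.87 and 3.25. In females given AAI, 0 of 10 were higher by 2-fold and 1, Sult2a1, was lower by 2-fold; 4 had a positive and 6 a negative ratio, with a median of -0.37.
Of 10 male-biased genes, all 10 were higher in the male corn oil pool by 2-fold, and 9 were lower by 2-fold in males given AAI, with a median of -3.78. Hsd3b5, a steroid reductase, was lower by at least 952-fold there, followed by Slco1a1 and Elovl3 at log2 ratios of -5.78 and -5.71. The male AAI ratio of Fmo2 (2.29) was thus near the female-biased median and that of Fmo1 (0.73) below it. Both directions share the male corn oil array, and their relation to the Fmo values was not tested.

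Some marker sets of other tissues also had their highest sums in the male AAI pool, where the brightest Fmo2 probe read highest. Skeletal muscle genes stood at a summed intensity of 1044.7 in female corn oil, 43772.5 in female AAI, 5153.5 in male corn oil and 338378 in male AAI livers, and all 10 of them were higher with AAI by 2-fold or more in both sexes, led by Acta1 at log2 ratios of 8.08 and 6.80. Fat markers summed to 1733, 2466, 4992 and 58471, and 6 of 9 were higher with AAI in males (Ucp1, Cidea and Retn led at 7.91, 5.54 and 4.08) against 3 of 8 in females (Cfd led at 3.51). In males 2 of the 9 fat markers had a negative ratio, Plin1 (-0.72) and Lep (-0.06), and Plin1 stood at -0.67 in females. Ucp1, the uncoupling protein of brown fat, was not well above background on either female array.
Adrenal cortex markers summed to 3899, 4980, 4846 and 43079, with 6 of 8 higher with AAI in males (Akr1b7 led at 4.85) and 1, Mc2r, lower, and none of 7 beyond 2-fold in females. Adrenal medulla markers summed to 3410.4, 3407, 4231 and 18505, with 3 of 7 higher in males (Chgb led at 7.79) and 1 of 7, Phox2a, lower in females. The male AAI liver RNA thus had a higher summed signal of 4 marker sets of other tissues, though not of every marker. Their part in the Fmo2 value was not tested.

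Fmo2 and these sets can be set side by side in the other comparisons. Between the AAI pools the muscle sum was 7.73-fold, the fat sum 23.7-fold, the adrenal cortex sum 8.65-fold and the adrenal medulla sum 5.43-fold higher in males, and Fmo2 was 3.06-fold higher. Between the corn oil pools the muscle sum was 4.93-fold and the fat sum 2.88-fold higher in males while Fmo2 was 2.67-fold lower. In females the muscle sum was 41.9-fold higher with AAI while Fmo2 was 1.67-fold lower. Markers of lung, the organ with the best known Fmo2 expression, went both ways with AAI. Their summed intensity in AAI was 0.921 times that in corn oil in females and 1.03 times in males, while 4 of 7 in females and 5 of 7 in males had a negative ratio, with medians of -0.01 and -0.48. None was higher by 2-fold, Sftpa1 was 2.95-fold lower in males, and Ager had a male ratio of 0.82. Kidney markers, for an organ rich in Fmo1 in mice, stood at 1.43 times in females and 1.08 times in males. By 2-fold, 0 of 9 and 0 of 8 were higher, and Slc12a3 was lower in males. A positive ratio was seen for 8 of 9 in females and 4 of 8 in males. Their medians were 0.35 and 0.06, beside 0.04 and 0.00 for all genes tested. The part of any of these sets in the Fmo2 values was not tested.

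The resident cell types of the liver other than hepatocytes were also compared with the Fmo values. Endothelial markers summed to 0.743 times the corn oil level in females, with Tie1 lower, and to 1.14 times in males, with 0 of 8 beyond 2-fold there. Markers of stellate cells and fibroblasts stood at 1.04 and 1.37 times, and 1 of 9, Col1a1, was higher by 2-fold in males. Macrophage markers were lower with AAI in both sexes, at 0.476 and 0.598 times, with 5 of 7 below 2-fold in females (Cd5l, Clec4f and Adgre1 furthest, at -1.77, -1.41 and -1.39) and 1, Cd5l, in males. Whether any of these shifts enters the Fmo1 or Fmo2 values was not tested.

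**Figure D4:**
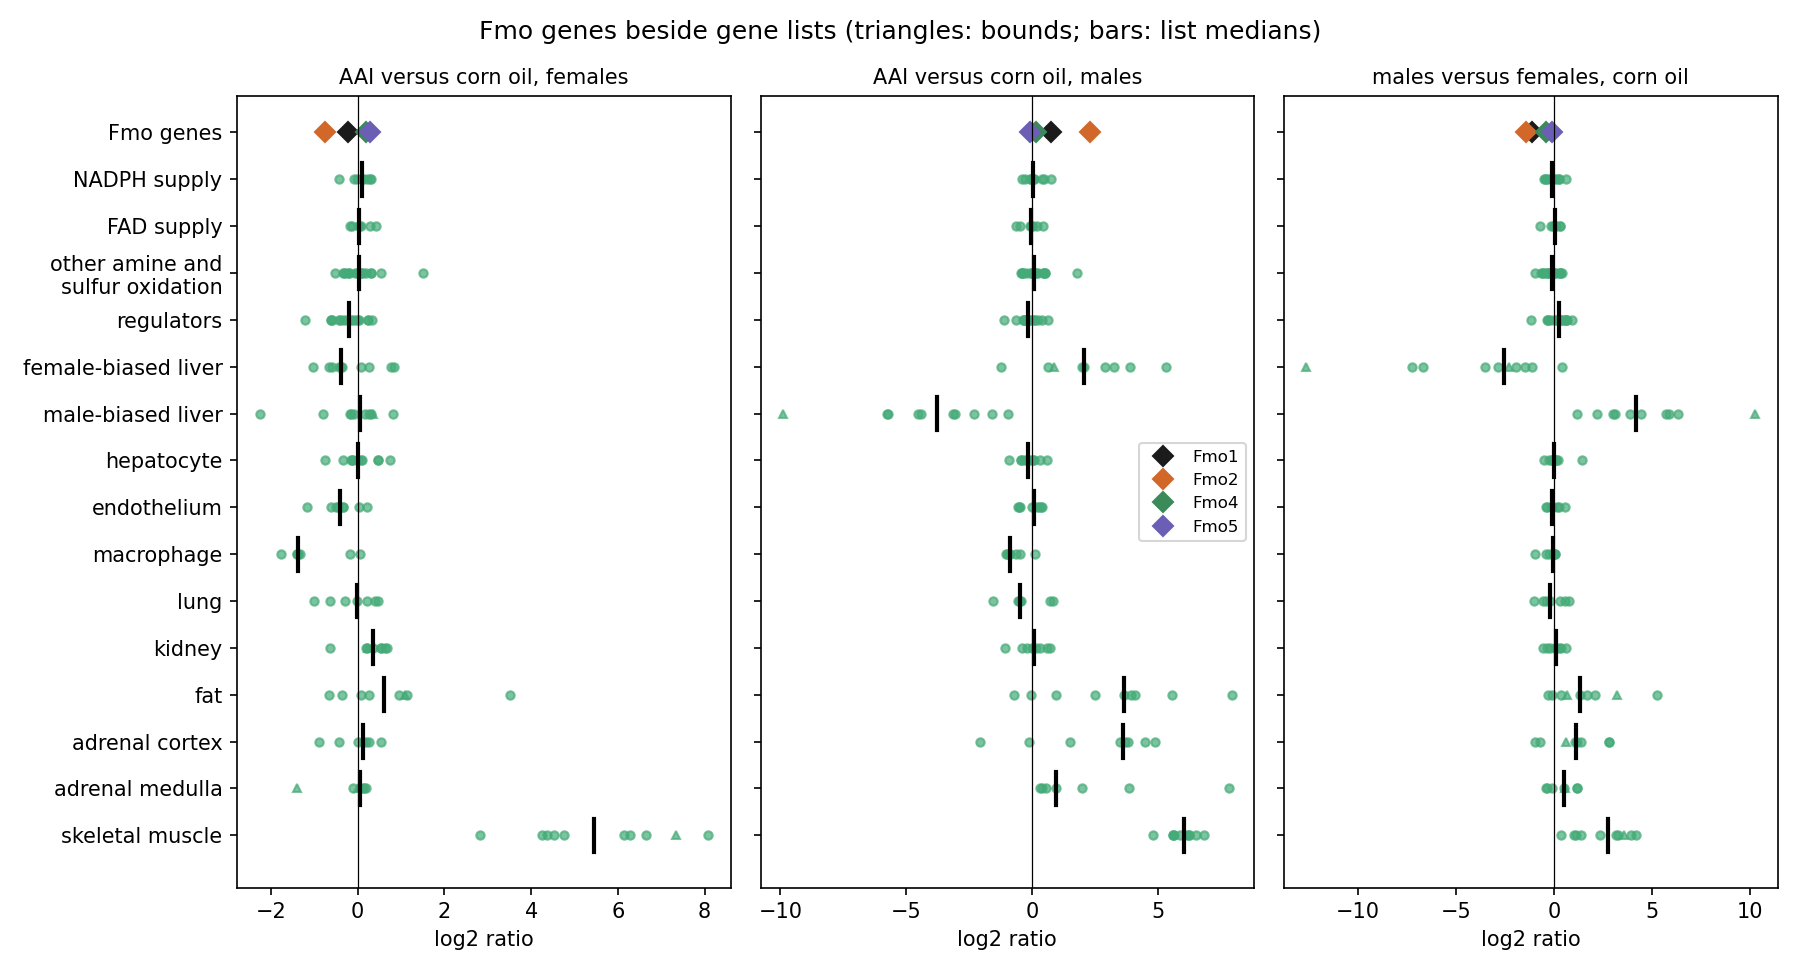
Log2 ratios of the 4 Fmo genes (diamonds, top row) and of the genes of 15 lists (circles, or triangles for bounds; black bars are list medians) for AAI versus corn oil in females and males and for males versus females in corn oil. In males the fat, adrenal and muscle lists have medians from 0.93 to 6.01, beside 2.29 for Fmo2 and 0.73 for Fmo1.

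The genes whose pattern over the 4 arrays was nearest to that of each Fmo gene were sought among 16161 genes. In these, the brightest probe was designed against a RefSeq mRNA and was well above background on all arrays. Nearness was the Euclidean distance between log2 values centred on their own mean. Within this restricted set Fmo2 had no gene within 0.25, and 1 within 0.5. Its nearest were 1700011I03Rik at 0.46, Id1 at 0.51 and Acot3, 1 of the female-biased genes above, at 0.54. Fmo1 had 36 genes within 0.25, the nearest being Pth1r (0.04), Msmp (0.09) and Parp2 (0.12).
Fmo4 and Fmo5, whose brightest probes varied less, had 987 and 1521 genes within 0.25. Sema4g, Repin1 and Gm14151 were nearest to Fmo4, at 0.01, 0.03 and 0.04, and E2f2, Olfr971 and Ston2 to Fmo5, at 0.02, 0.03 and 0.03. With only 4 arrays such likeness is a description, and closeness to a nearly level pattern is common.

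Other ways of processing the arrays left the direction of the Fmo1, Fmo2 and Fmo4 ratios in the 3 comparisons of AAI with corn oil in each sex and of the corn oil pools as given, and also between the AAI pools, where they were recomputed after the data were seen. The Fmo2 ratio of AAI to corn oil in males ran from 1.30 to 2.35 over 8 alternatives and stayed above 2-fold. The lowest value was the mean over its 4 probes in place of the brightest. Among these alternatives, leaving out the filter on dim probes could not change any Fmo value, since all Fmo probes were well above background. In the corn oil comparison of the sexes, that mean brought Fmo1 to -0.70 and Fmo2 to -0.90, both then short of 2-fold.

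**Figure D5:**
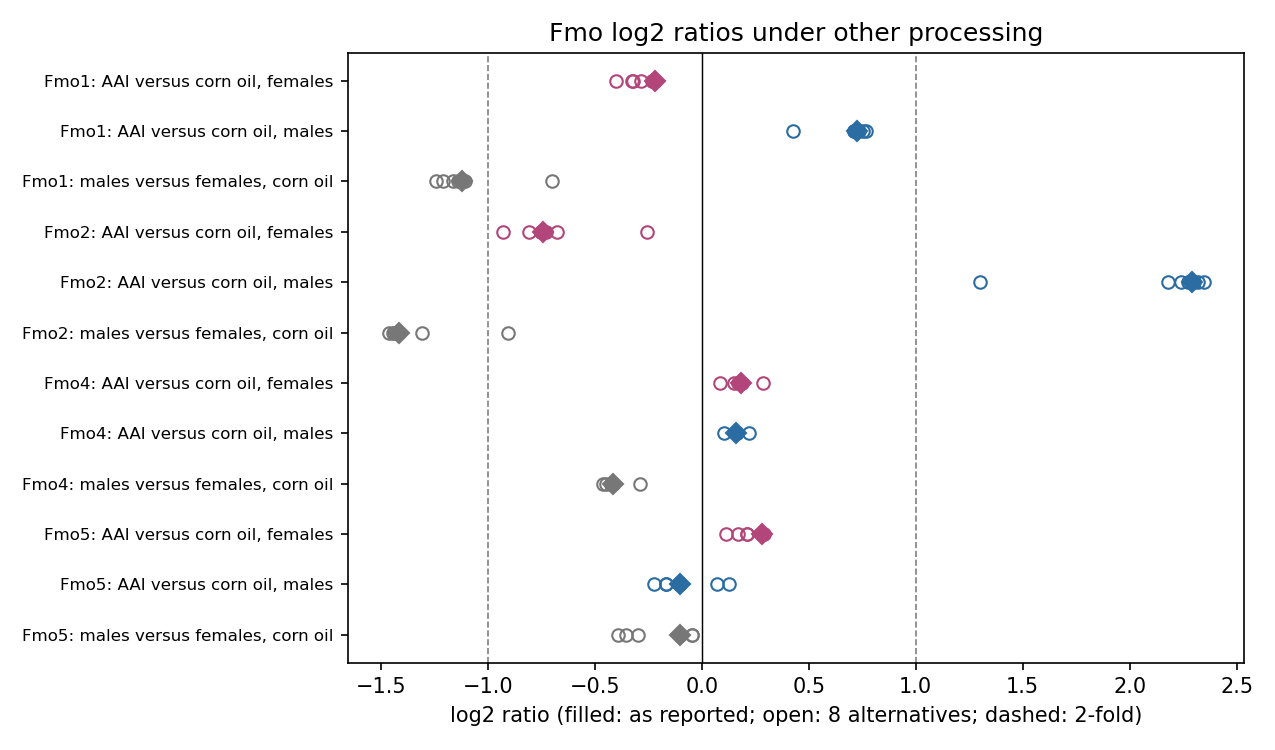
Log2 ratios of the 4 Fmo genes as reported (filled diamonds) and under 8 alternative ways of processing (open circles), with dashed lines at 2-fold. The Fmo2 ratio in males lies between 1.30 and 2.35, and the Fmo5 ratio in males between -0.22 and 0.13, on both sides of 0.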

How the data were processed

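Cy3-labelled RNA of 4 pools was hybridized to Agilent SurePrint mouse arrays, and the authors extracted the spots with Feature Extraction 10.5.1.1. The deposited scanner files hold intensity values per spot, background-subtracted and trend-corrected by that software but not normalized between arrays. The authors also deposited a table of quantile-normalized intensity values, which was used as an alternative. The authors' normalization makes the arrays share 1 distribution, so a shift of most genes would not be seen.

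From the scanner files, control and outlier spots were left out, processed signals were taken to log2, and 56495 probes with a value on all 4 arrays were quantile normalized (Python 3.11.15, numpy 2.4.6, pandas 2.3.3). A further 104 probes were left out of all gene values because the background stood in place of their signal, judged as a processed signal within 1% of the background value on a spot more than 10 times brighter than it; none was an Fmo probe. The brightest probe stood for a gene. A ratio was a bound where 1 of the 2 arrays was not well above background, and 2-fold (a log2 ratio of 1) was the threshold. The script was tested on simulated data. Alternatives were scaling to the 75th percentile or median, limma 3.58.1 normexp (offset 50), the background-subtracted signal, the authors' table, the mean of probes, normalization of 2 arrays alone, no filter on dim probes and a 3-fold threshold.

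Samples were grouped by the labels. The members and the gene lists were chosen with earlier results of these data known. Named genes were all members, up to 3 list genes per direction past 2-fold or else 2 per list, the 3 nearest patterns and the 2 nearest protein-coding genes on each side, their order taken from a RefSeq gene table of another build; fewer were named for lists that no Fmo value turns on. The number of arrays limits the precision. Some items of the files are not reported here.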

Additional observations from a re-analysis of the deposited data

Results flagged for a closer look

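The ratio of AAI to corn oil had opposite signs in the sexes for 3 of the 4 Fmo genes, taken by their brightest probe. The share of all genes tested with opposite signs is not given here, so nothing is read from this count. For Fmo2 the male log2 ratio was 2.29 and the female one -0.74, a difference of 3.03. For Fmo1 they were 0.73 and -0.22, a difference of 0.95, but the female value is below the spread between probes (0.25) and 2 of the 4 Fmo1 probes were positive in females. For Fmo5 they were -0.10 and 0.28, a difference of -0.38, and the male value changed sign with the scaling. With 1 array per group these differences were not tested, and sex, dose and array cannot be told apart.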

How the results depend on the processing

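Of 156 recomputed Fmo ratios and differences between the sexes, 147 moved by less than the spread between probes and none above 2-fold changed sign. The 147 include values that could not move. Every Fmo probe was well above background on every array, so leaving out the filter on dim probes changed no Fmo value. The mean over probes could not change Fmo4, which has 1 probe. With the mean over probes in place of the brightest probe, Fmo2 was -0.26 in females and 1.30 in males (AAI versus corn oil), the difference of its ratios between the sexes was 1.56, Fmo1 was 0.43 in males, and in corn oil males versus females Fmo1 was -0.70 and Fmo2 -0.90. Between the AAI pools, an alternative added after seeing the data, that mean was 0.65 for Fmo2, short of 2-fold. Fmo5 in the corn oil sex comparison was -0.39 with scaling to the 75th percentile and -0.35 with median scaling. The cause was not tested. Counts of all genes at least 2-fold higher and lower were 425 and 974 in females, 1058 and 1379 in males, and 1175 and 567 for males versus females in corn oil. They became 138 and 320, 505 and 643, and 473 and 203 after normexp, whose offset draws dim ratios to 0. Without the filter on dim probes, more genes were tested: 1068 were higher in females, 1783 higher and 2221 lower in males, and 1813 higher and 1247 lower in the sex comparison. At 3-fold they were 120 and 221, 471 and 491, and 369 and 154. With scaling to the 75th percentile, 45.3% of the female calls were higher, against 30.4%. Of 54 recomputed counts, 37 were within 1.5 times. No paired analysis was possible because each group has 1 array, and for the same reason no replicate could be left out.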
